A study of Homo sapiens with 27 samples.

Results

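The ZFP36 family of mRNA decay factors was followed in U937, a human myeloid leukemia cell line, before and after treatment with matrine, an alkaloid from Sophora flavescens. The family was taken by name as 3 genes, ZFP36 (which encodes tristetraprolin), ZFP36L1 and ZFP36L2, out of 57905 gene identifiers in the deposited table, and each symbol matched 1 identifier. The series holds 27 RNA-seq libraries of 3 cell lines, and those of HL-60 and K562 are not analysed here. In U937, the groups were cells labelled as control, cells exposed to matrine at 0.8 mg/ml over 30 min and cells exposed at the same dose over 24 h, with 3 libraries in each. No genetic change is named for any group, all cells were kept in medium with serum, and the same control libraries served both treatment times. The study's methods name distilled water as the vehicle for matrine. The culture time of the control is not given in the sources used here, so time in culture cannot be told apart from 24 h of treatment. Nothing in the labels says that the 3 libraries of a group came from separate cultures, and p-values then measure only the spread between these libraries.

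ZFP36 proteins bind AU-rich elements, stretches of A and U in the 3′ untranslated region (3′ UTR) of an mRNA, through a tandem pair of CCCH zinc fingers. They then recruit the CCR4-NOT complex, which removes the poly(A) tail, so that decapping enzymes and exonucleases can degrade the body of the mRNA. In monocytes and macrophages ZFP36 is best known for limiting TNF and other cytokines, whereas ZFP36L1 and ZFP36L2 are best known for restraining proliferation in developing blood cells. The kinase MAPKAPK2 (MK2), which acts below p38, phosphorylates ZFP36 and weakens its recruitment of deadenylases.

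The mRNAs of the family themselves carry the element that its proteins recognise. In GENCODE release 44 (GRCh38), the reference transcripts of the 3 genes each held 1 copy of the nonamer UUAUUUAUU in a 3′ UTR of 708 bases for ZFP36, 1871 bases for ZFP36L1 and 1917 bases for ZFP36L2. Each held 3 copies of the shorter heptamer UAUUUAU, counted with overlaps, so the nonamer and heptamer counts share bases. The sites are shown as RNA, 5′ to 3′, with the nonamer in capitals, at chr19:39409196-39409225 on the plus strand for ZFP36, chr14:68788076-68788105 on the minus strand for ZFP36L1 and chr2:43223447-43223476 on the minus strand for ZFP36L2.
ZFP36: uaugacgacuUUAUUUAUUcuaauaugauu
ZFP36L1: aacuguuggaUUAUUUAUUuuagaaauucc
ZFP36L2: acuauuuaacUUAUUUAUUaucuugugaaa
The flanks differed while the core was shared. A match is a description of the letters and does not show that a protein was bound there.

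Each library held 17314931 to 21930018 counted reads, of which 4.99% to 5.28% came from its 10 most abundant genes. Of 9 myeloid markers, 6 had a median above 1 FPKM (reads scaled for gene length and library depth), among them SPI1, CEBPA, CD33 and LYZ, while CD14, CD68 and CSF1R lay below it. The summed level of the 9 markers was 419 to 423 FPKM in the control, 406 to 430 FPKM after 30 min and 352 to 358 FPKM after 24 h, of which LYZ held 292.3, 301.9 and 243.6 FPKM on average. Of the 6 myeloid markers tested, 1 was called against the control, ITGAM (CD11b), higher at 24 h, where 15.1% of all genes tested were called higher. Its means were 1.28 FPKM in the control and 3.15 FPKM at 24 h (log2 fold change 1.25, adjusted p = 3.7e-09, edgeR). Its part in the results at 24 h was not tested. Of 5 erythroid markers, HBG1 was at 0 in all 9 libraries and KLF1 was the 1 with a median above 1 FPKM. Of 4 lymphoid markers, CD3D, CD3E and MS4A1 were at 0 in all 9 libraries.

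ZFP36L2 made up nearly all of the family mRNA in U937 cells. In the control libraries its level was 276.33, 270.79 and 255.8 FPKM. ZFP36 lay at 4.93, 5.34 and 5.6 FPKM in the same libraries, and ZFP36L1 at 0.23, 0.25 and 0.11 FPKM. The levels of the 3 genes did not overlap in any group, with ZFP36L2 highest and ZFP36L1 lowest throughout. The mean FPKM of ZFP36L2 was 50.6 times that of ZFP36 in the control, 23.7 times after 30 min and 26.6 times after 24 h. By mean FPKM, ZFP36L2 ranked 126th among all genes in the control, 484th after 30 min and 198th after 24 h.

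The members were chosen with their behaviour in these comparisons known, so their changes are given as a description and not as a test. Calls of change required 1.5-fold or more together with a Benjamini-Hochberg adjusted p under 0.05, from edgeR's quasi-likelihood test over all genes with a mean above 1 FPKM. ZFP36 and ZFP36L2 passed that filter and ZFP36L1 did not.

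After 30 min of matrine treatment, ZFP36L2 mRNA lay far below its control level. Its levels were 87.49, 97.51 and 91.26 FPKM in the 30 min libraries, a mean of 92.1 ± 5.06 FPKM (SD, n = 3) against 267.6 ± 10.6 FPKM (SD, n = 3) in the control. All 3 treated libraries lay below all 3 controls, and the mean was 34.4% of the control mean. The log2 fold change was -1.53 with a standard error of 0.0538, the 27th lowest of 11587 genes tested. In bulk RNA a lower level in every cell cannot be told apart from fewer cells that express the gene.

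ZFP36 moved in the same direction by a smaller amount. Its levels were 4.29, 3.75 and 3.63 FPKM after 30 min, a mean of 3.89 ± 0.352 FPKM (SD, n = 3) against 5.29 ± 0.338 FPKM (SD, n = 3) in the control. The groups did not overlap, but the highest 30 min library lay only slightly below the lowest control. The log2 fold change was -0.43 with a standard error of 0.117, and the gene was not called. Among the 11587 genes tested, 0.544% were called lower and 0.0949% higher at 30 min, and in 8.91% all 3 treated libraries lay below all 3 controls. The 1 member called, ZFP36L2, and the 2 members without overlap stand beside these shares as a description, since the family was chosen with this comparison known.

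ZFP36L1 was barely detected. The control libraries held 32, 32 and 13 of its reads, those at 30 min 12, 14 and 20, and those at 24 h 35, 25 and 31. The 30 min libraries overlapped the control through control replicate 3, which had 13 reads, while all 3 libraries at 24 h lay above all 3 at 30 min. In a fit without the filter the log2 fold change was -0.83 with a standard error of 0.347 at 30 min and 0.01 with a standard error of 0.316 at 24 h. At this depth no direction can be given for ZFP36L1 against the control.

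**Figure D1:**
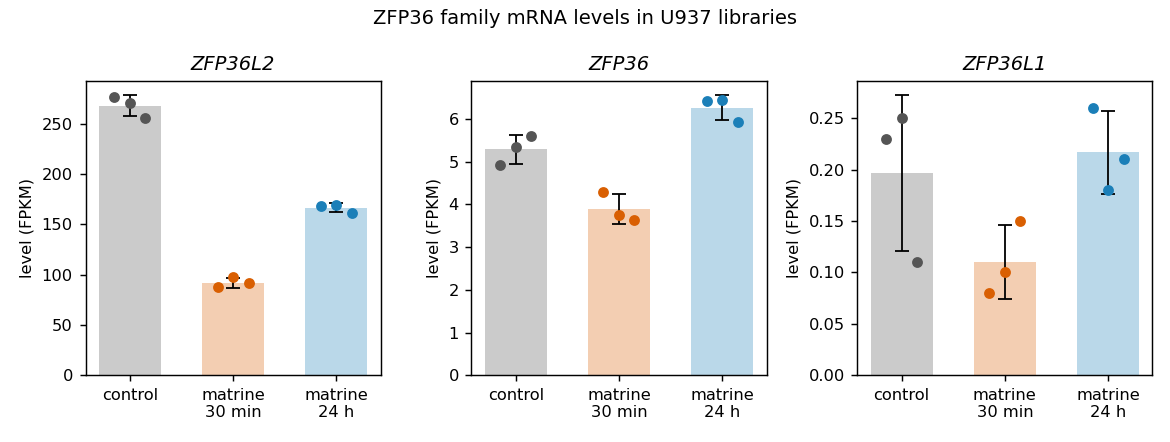
Level in FPKM (linear axis from 0, a separate scale in each panel) of ZFP36L2, ZFP36 and ZFP36L1 in the control, 30 min and 24 h libraries of U937. Points are libraries, bars are means and error bars are SD over 3 libraries; ZFP36L2 went from 267.6 FPKM in the control to 92.1 after 30 min and 166.3 after 24 h, while ZFP36L1 was at most 0.26 FPKM in any library.

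After 24 h, ZFP36L2 stood between its 30 min and its control levels. The 24 h libraries had 168.15, 169.51 and 161.26 FPKM, a mean of 166.3 ± 4.42 FPKM (SD, n = 3). All 3 lay above all 3 of the 30 min libraries and below all 3 controls, and the mean was 62.1% of the control mean. The log2 fold change was -0.73 with a standard error of 0.0529 against the control, where ZFP36L2 was called lower, and 0.77 with a standard error of 0.0533 against 30 min, where it was called higher.

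ZFP36 at 24 h stood slightly above its control level. The 24 h libraries had 6.42, 6.45 and 5.92 FPKM, a mean of 6.26 ± 0.298 FPKM (SD, n = 3). They lay above all controls and all 30 min libraries, though the lowest 24 h library exceeded the highest control by little. The log2 fold change was 0.20 with a standard error of 0.111 against the control, where the gene was not called, and 0.60 with a standard error of 0.114 against 30 min, where it was called higher by a small margin. At the 1.5-fold threshold that last call was lost under 2 alternative analyses and without any 1 of 3 libraries, where the log2 fold change was 0.55 to 0.58, just under the threshold of 1.5-fold.

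At 24 h, calls were frequent among all genes. Of the 12035 genes tested against the control, 11.2% were called lower and 15.1% higher, and in 31% all 3 treated libraries lay below all controls and in 38.7% above them. Of the 11981 genes tested at 24 h against 30 min, 15.4% were called higher, and in 39.9% all 3 libraries at 24 h lay above all 3 at 30 min. The 1 member called lower against the control and the 2 called higher against 30 min stand beside these shares, and nothing is read from them.

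**Figure D2:**
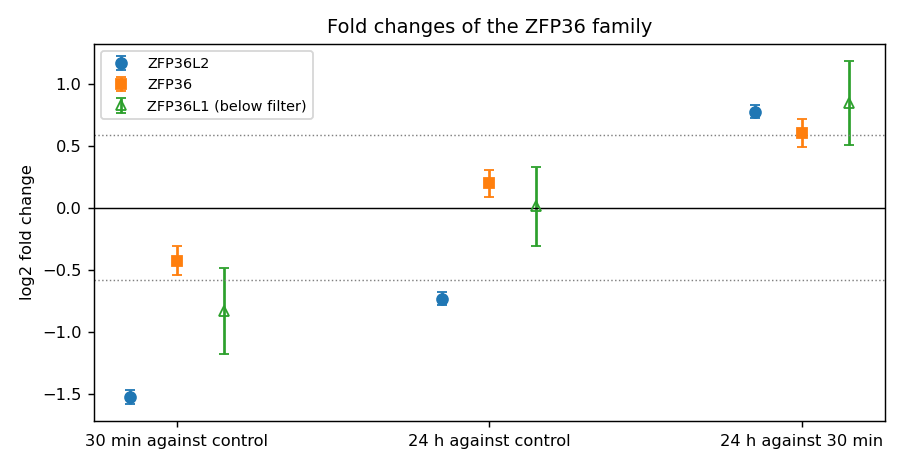
Log2 fold change (vertical axis) of each family member in the 3 comparisons (horizontal axis), with standard errors from edgeR's quasi-likelihood fit of 9 libraries; dotted lines mark a fold change of 1.5 in either direction, and open triangles mark ZFP36L1, which did not pass the filter and comes from the unfiltered table. ZFP36L2 lies at -1.53, -0.73 and 0.77 and ZFP36 at -0.43, 0.20 and 0.60.

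The summed level of the family followed ZFP36L2. The control sum was 273.1 ± 10.4 FPKM (SD, n = 3), followed by 96.1 ± 4.84 FPKM (SD, n = 3) at 30 min and 172.8 ± 4.72 FPKM (SD, n = 3) after 24 h. ZFP36L2 held 98.0% ± 0.175 of the sum (SD, n = 3) in the control, 95.8% ± 0.51 (SD, n = 3) after 30 min and 96.3% ± 0.0804 (SD, n = 3) after 24 h. The share of ZFP36 was 1.94% ± 0.195 (SD, n = 3), 4.06% ± 0.529 (SD, n = 3) and 3.62% ± 0.0754 (SD, n = 3) in the same order. The ZFP36 share was higher in each of the 6 treated libraries than in any control library, and in all 3 libraries at 30 min it was also above those at 24 h, the nearest values being 3.70% and 3.67%.

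The genes whose profile over the 9 libraries was most like that of ZFP36L2 were low-abundance transcripts. They were ENSG00000265749, the pseudogene PLEKHA3P1 and the intronic transcript ACAP2-IT1, whose log2 counts, scaled to library depth and taken relative to the control mean, differed from that of ZFP36L2 by a root mean square of 0.197, 0.234 and 0.289. Their mean control levels were 1.62, 1.52 and 1.41 FPKM, and the 30 min means were 0.61, 0.6 and 0.507 FPKM. For ZFP36 the closest profiles were those of ZNF557, IRF2BP2 and MASTL, with differences of 0.0805, 0.0846 and 0.0954. Among them IRF2BP2, a transcriptional corepressor, had the highest level, at 59.6 FPKM in the control, 43.98 FPKM after 30 min and 74.4 FPKM after 24 h. For ZFP36L1, whose profile rests on few reads, the closest of 12239 genes were ENSG00000262692, C19orf73 and IER5L, at 0.229, 0.295 and 0.318.

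The mRNAs that ZFP36 proteins are known to bind or restrain were followed through a list of 31 genes, of which 30 matched the table and 17 passed the filter at each time. At 30 min, 6 of the 17 were called lower and 0 higher, beside 0.544% called lower among all genes, with a median log2 fold change of -0.36 in the list against -0.004 for all genes tested. At an unadjusted p below 0.05, 9 of the 17 were lower and 0 higher in edgeR. The share of all genes at that threshold is not given here, so nothing is read from the 9. DESeq2 and limma, run on the same libraries, each called 6 lower and 0 higher. The list was drawn up with earlier results of these data known, which had named TNF, CXCL8, IER3, CCL2 and MYC. Without those 5 genes, 1 of 12 tested genes was called lower, which was IL1B, and the median was -0.125. In 6 of these 12 genes all 3 treated libraries lay below all 3 controls, beside 8.91% of all genes.

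TNF, the cytokine most closely tied to ZFP36, was measured at 5.68, 5.7 and 6.06 FPKM in the control and at 0.93, 1.39 and 1.61 FPKM after 30 min. No library of either group came near the other. Its log2 fold change was -2.14 with a standard error of 0.169 (adjusted p = 4.4e-08, edgeR). IL1B, which encodes interleukin 1 beta, was measured at 2.75, 2.57 and 3.0 FPKM in the control and at 0.72, 0.66 and 0.71 FPKM after 30 min (log2 fold change -1.97, standard error 0.163, adjusted p = 8.1e-08, edgeR). CXCL8, the neutrophil chemokine interleukin 8, stood at 8.2, 9.85 and 8.46 FPKM in the control and at 1.8, 1.86 and 1.47 FPKM after 30 min, the lowest log2 fold change of the list at -2.35 with a standard error of 0.132 (adjusted p = 3.0e-10, edgeR). CCL2, a monocyte chemokine, IER3, an early-response survival gene, and MYC were the other called genes, with log2 fold changes of -2.03, -1.50 and -1.93. IER3 rested on 10 to 43 reads per library in these groups.

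The AU-rich sites of these lower mRNAs were of several kinds. The 3′ UTR of TNF held 5 nonamers, that of IL1B 2 and that of CXCL8 1, while those of CCL2 and IER3 held 0; IER3 held 4 heptamers and CCL2 0. Sites in MYC, the other mRNA called lower, are not reported here. The first site of TNF, IL1B and CXCL8 is shown as RNA with nonamers in capitals. TNF and IL1B carry overlapping copies where the family's own mRNAs shown above carry 1. The sites lie at chr6:31577990-31578019 on the plus strand for TNF, chr2:112829994-112830023 on the minus strand for IL1B and chr4:73742664-73742693 on the plus strand for CXCL8 (GRCh38, GENCODE release 44).
TNF: gcacuugugaUUAUUUAUUAUUUAUUUAUU
IL1B: gcuucccuauUUAUUUAUUUAUUuguuugu
CXCL8: auguaaaguaUUAUUUAUUugaaucuacaa
At 30 min the log2 fold changes were -2.14 for TNF with 5 nonamers, -1.97 for IL1B with 2 and -2.35 for CXCL8 with 1. CCL2 and IER3, with 0, stood at -2.03 and -1.50. These genes were all called lower, which limits the range of change, and a link with the number of nonamers was not tested.

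At 24 h the listed mRNAs divided. Of the 17, 5 were called lower and 5 higher, beside 11.2% and 15.1% of all genes, and the median was -0.02 against 0.008 for all genes. CXCL8 stayed low, at 1.69, 1.9 and 1.73 FPKM, which overlaps its 30 min libraries (log2 fold change against the control -2.36, standard error 0.132, adjusted p = 2.9e-12, edgeR). CCL2 and MYC were also called lower, at -2.27 and -2.29. TNF, at 3.48, 4.01 and 3.41 FPKM, lay between its 30 min and control libraries, the same order as ZFP36L2 (log2 fold change -0.72, standard error 0.147, adjusted p = 0.00022, edgeR). IL1B, at 2.17, 2.93 and 2.71 FPKM, overlapped the control. IER3, at 3.23, 4.06 and 4.22 FPKM, lay above all controls (log2 fold change 1.29, standard error 0.225, adjusted p = 4.3e-05, edgeR).

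CDKN1A, which was not called at 30 min, had the largest increase in the list at 24 h. This gene, which encodes the cyclin-dependent kinase inhibitor p21, went from 0.98, 1.35 and 1.2 FPKM in the control to 7.91, 6.65 and 7.02 FPKM (log2 fold change 2.57, standard error 0.142, adjusted p = 2.7e-12, edgeR). Its 3′ UTR held 0 nonamers and 0 heptamers. PLAU, VEGFA and DUSP1, named after their values were seen, were also called, at 0.92, 0.90 and -0.68.

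**Figure D3:**
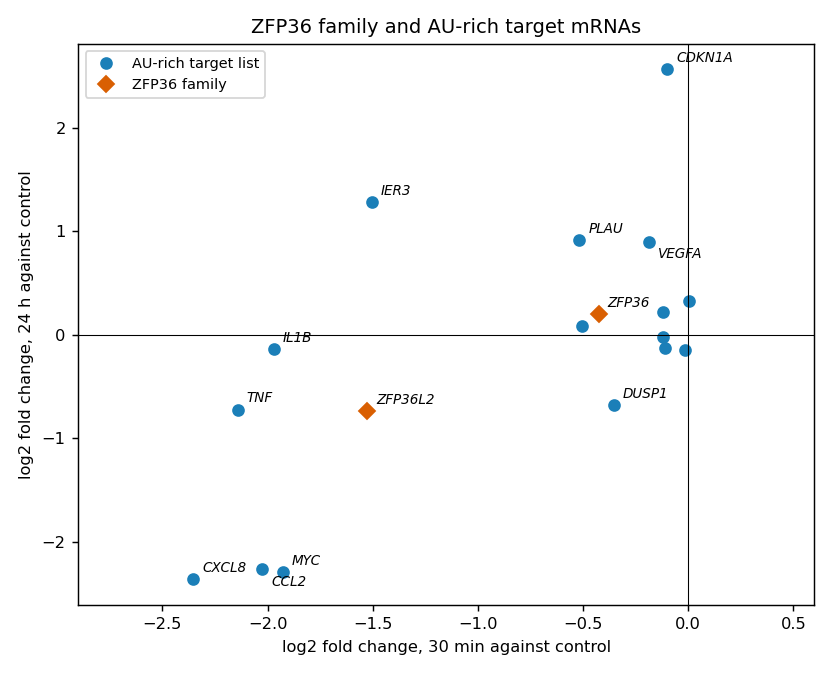
Log2 fold change at 30 min (horizontal axis) and at 24 h (vertical axis), both against the same control libraries, of tested genes of the AU-rich target list (circles, 1 gene not shown) and of ZFP36 and ZFP36L2 (diamonds). CXCL8, CCL2 and MYC are low at both times, TNF at -2.14 and -0.72 and ZFP36L2 at -1.53 and -0.73 lie closer to the control at 24 h, and IER3 goes from -1.50 to 1.29.

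The AU-rich nonamer was then counted in all tested genes with a 3′ UTR in the annotation, 9677 at 30 min and 9907 at 24 h. At 30 min, the median log2 fold change was 0.001 for the 8805 genes with 0 nonamers, -0.06 for the 661 genes with 1 and -0.07 for the 211 genes with 2 or more. The spread of these medians over the 3 treated libraries (SD) was 0.0055, 0.048 and 0.051, so the shift is of the size of the spread between libraries. Called lower were 0.409% of the genes with 0 nonamers, 1.36% of those with 1 and 2.37% of those with 2 or more, which are 36, 9 and 5 genes. The 9 include ZFP36L2 and CXCL8, and the 5 include TNF and IL1B. These genes belong to the family or the target list, chosen with earlier results known, so the shares are not separate from those choices. At 24 h the medians were -0.015, -0.016 and -0.059, and 11.9%, 11.3% and 15.7% of genes were called lower while 13.7%, 13.6% and 6.02% were called higher. Other features moved with these classes: the median 3′ UTR length at 30 min was 1160, 2880 and 4033 bases, and the median control level was 9.13, 5.69 and 6.05 FPKM. Their part in these differences was not tested.

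**Figure D4:**
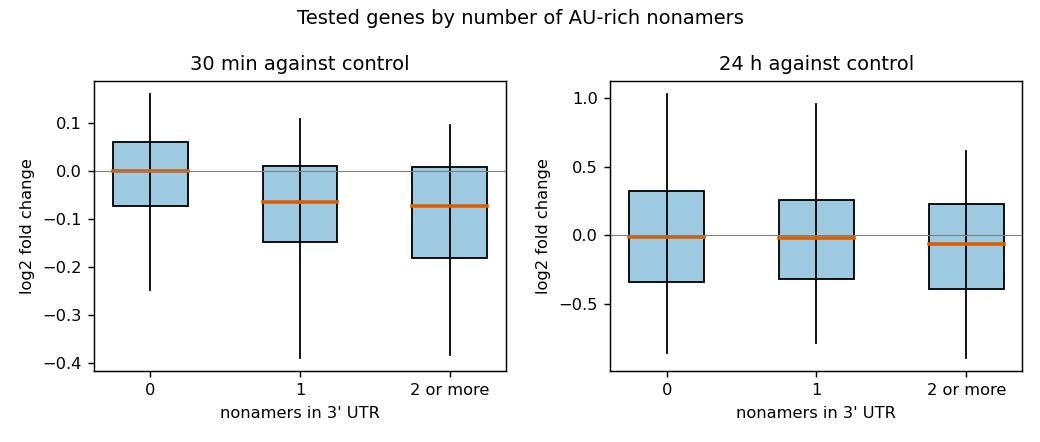
Log2 fold change (vertical axis) of tested genes grouped by the number of UUAUUUAUU nonamers in the 3′ UTR (horizontal axis), at 30 min (left) and 24 h (right) against control. Boxes span the 25th to 75th percentile, lines the 5th to 95th, and the coloured line is the median; at 30 min the medians are 0.001, -0.06 and -0.07.

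The decay machinery and the regulators of the family were followed in 4 further lists. Of 70 tested genes in lists of deadenylases, of decapping enzymes and exonucleases, of other proteins that bind AU-rich or related elements, and of p38-MK2 control, 0 were called at 30 min by edgeR, by DESeq2 and by limma, beside 0.544% called lower and 0.0949% higher among all genes, so that a count of 0 is near the background. At an unadjusted p below 0.05, edgeR gave 2 lower and 1 higher, and the share of all genes at that threshold is not given here. The scaffold CNOT1 and the deadenylase CNOT7 had log2 fold changes of -0.01 and 0.01, with standard errors of 0.0633 and 0.0648. MAPKAPK2 and p38 alpha (MAPK14) had log2 fold changes of 0.02 and 0.05, with standard errors of 0.0525 and 0.056. The RNase ZC3H12A, which degrades cytokine mRNAs through stem-loops, had one of -0.27 with a standard error of 0.101 (adjusted p = 0.26, edgeR). CNOT1, CNOT7, MAPKAPK2, MAPK14 and ZC3H12A were chosen for their roles after their values were seen.

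At 24 h, 10 of the 70 genes were called lower and 1 higher, beside 11.2% and 15.1% of all genes. The exosome, the 3′ to 5′ exonuclease complex, held 6 of the 7 lower genes in the list of decapping enzymes and exonucleases, in which 30 genes were tested and the median was -0.32. For EXOSC2 the log2 fold change was -0.94 (standard error 0.0607), for EXOSC5 -0.90 (0.0775), for EXOSC4 -0.86 (0.103) and for EXOSC7 -0.83 (0.073), each with an adjusted p of at most 3.2e-07 in edgeR. EXOSC3, EXOSC6 and LSM2, named after their values were seen, were the other genes called lower, at -0.71, -0.64 and -0.62. The exosome genes EXOSC1, EXOSC8, EXOSC9, EXOSC10, DIS3 and DIS3L, named in the same way, were not called. They stood at -0.17, -0.14, -0.37, -0.12, -0.55 and -0.22. Of the 14 deadenylase genes, 1 was called higher, PAN2, the catalytic subunit of PAN2-PAN3, at 1.11 with a standard error of 0.0767 (adjusted p = 8.3e-11, edgeR). The median of the deadenylase list was -0.04, and CNOT7 and its relative CNOT8, also named after their values were seen, stood at -0.25 and 0.28.

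Among 11 tested proteins of the AU-rich and related class, 1 was called at 24 h, beside 11.2% of all genes called lower and 15.1% higher. It was ELAVL1 (HuR), which stabilises many AU-rich mRNAs. Its means were 33.2 FPKM in the control and 20.8 FPKM at 24 h (log2 fold change -0.73, standard error 0.0587, adjusted p = 9.5e-10, edgeR). HNRNPD (AUF1) and KHSRP, which promote decay and were named after their values were seen, had log2 fold changes of -0.44 and -0.54, under the fold change threshold. Of 15 genes of p38-MK2 control, 2 were called lower, beside the same 11.2% of all genes. The count was 1 with library totals alone, with limma, at a mean FPKM above 5 or without control replicate 1. MAP2K3, a kinase that activates p38, stood at -0.68 with a standard error of 0.0675, and YWHAG, a 14-3-3 protein, at -0.59 with a standard error of 0.0477, close to the threshold. MAPKAPK2 itself had a log2 fold change of 0.01 with a standard error of 0.0537.

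**Figure D5:**
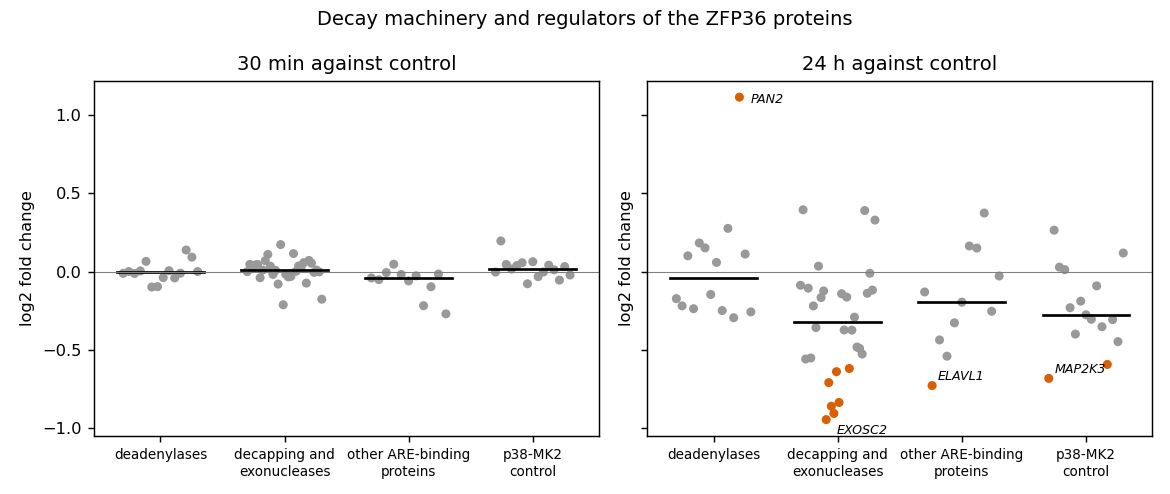
Log2 fold change (vertical axis) of each tested gene in the 4 lists of decay machinery and regulators (horizontal axis) at 30 min (left) and 24 h (right) against control; coloured points were called, grey points were not, and black lines are list medians. All points at 30 min lie between -0.27 and 0.20, and at 24 h EXOSC2, ELAVL1 and MAP2K3 are among the genes called lower and PAN2 is higher.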

How the data were processed

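Gene expression in U937 was measured by RNA-seq of 9 libraries, 3 per group. The authors trimmed, mapped and counted the reads (cutadapt 1.9.1, HISAT2 2.0.1 and HTSeq 0.6.1 per the submitters' processing notes) and deposited an unnormalized read count and an FPKM value for each gene and library. The notes name GRCh37 and the paper's methods hg38. The file gives no coordinates, so those printed are GENCODE 44 positions on GRCh38, used only for sequences. Strand setting and handling of multi-mapping reads are not given in the sources used here. A transcript on the opposite strand, ENSG00000287387, overlaps exons of ZFP36L2 in GENCODE 44, and 1 on the same strand, ENSG00000289626, those of ZFP36L1, and neither has its own row. Of 57905 identifiers, 51996 matched a symbol. CCL3 and DCP1A were not matched. Results of some listed genes are counted with their list and not reported here singly.

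Counts were tested with edgeR 4.0.16 (R 4.3.3), TMM normalization and its quasi-likelihood test in a fit of 9 libraries, for genes whose FPKM averaged more than 1 across the 6 libraries compared. Calls needed 1.5-fold or more and an adjusted p under 0.05. Each standard error was obtained by dividing the log2 fold change by the square root of F. Library pairs within a group differed by more than sampling noise. The procedure was tested on simulated data. The members and all lists were chosen with earlier results of these data known. Genes named were the members, the 4 largest calls per list and time, 5 targets named by earlier results and the 3 closest profiles to each member by root mean square difference; others are marked. Alternatives were the filter, the normalization, DESeq2 1.42.0, limma 3.58.1 on log2(FPKM + 0.1) or log2(FPKM + 1), the libraries in the fit, a replicate block, a 2-fold threshold and each library left out.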

Additional observations from a re-analysis of the deposited data

Results flagged for a closer look

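Levels of several named genes differed between the 30 min and 24 h libraries, by edgeR's test of 24 h against 30 min. Of the 11981 genes tested in this comparison, 15.4% were called higher and 1379 genes lower. Time in culture cannot be told apart from 24 h of treatment here. In the AU-rich target list the log2 difference was 2.77 for IER3, 2.65 for CDKN1A, 1.82 for IL1B and 1.40 for TNF, each higher at 24 h. IER3 went from below all controls at 30 min to above all controls at 24 h. In the decay machinery PAN2 was higher at 24 h, by 0.95. EXOSC5, EXOSC2, EXOSC7 and EXOSC4 were lower at 24 h than at 30 min, with values of -1.10, -0.95, -0.84 and -0.80. ELAVL1, MAP2K3 and YWHAG were lower as well, at -0.70, -0.70 and -0.62. These genes include those picked for large changes at either time, which favours a difference.

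ZFP36 lay below all 3 controls in all 3 libraries at 30 min and above all 3 in all 3 libraries at 24 h, with a log2 difference of 0.60 between the times. It was called higher at 24 h by edgeR, by a small margin, but the family was chosen with this difference known, so it is given as a description.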

How the results depend on the processing

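ZFP36L2 was called lower at both times and higher at 24 h against 30 min under all 18 alternatives at the 1.5-fold threshold, with log2 fold changes from -1.56 to -1.49 at 30 min, -0.80 to -0.68 at 24 h and 0.72 to 0.85 between them. At a 2-fold threshold its 24 h values of -0.73 and 0.77 and the 0.60 of ZFP36 would not be called. ZFP36 was called against the control under none of its alternatives, and at a mean FPKM above 5 it was not tested at 30 min. Its call at 24 h against 30 min was lost without a filter (0.55) and with limma on log2(FPKM + 1) (0.57). It was also lost without 30 min replicate 2 or 3 or 24 h replicate 2; leaving out libraries gave 0.56 to 0.69. ZFP36L1, which has no test, gave -0.11 at 30 min and 0.13 at 24 h against 30 min with limma on log2(FPKM + 1), where a pseudocount above its level shrinks the change; leaving out libraries gave -0.26 to 0.21 at 24 h.

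Thresholds moved the numbers of calls by construction. At 30 min, 74 genes were called, with 123 without a filter, 49 at a mean FPKM above 5 and 24 at a 2-fold threshold. At 24 h, 3164 became 1677 and 1120 under the last 2 settings, and at 24 h against 30 min 3223 became 1700 and 1122. In the AU-rich target list a mean FPKM above 5 left 3 calls at 30 min and 6 at 24 h, and a 2-fold threshold left 6 at 24 h. Library totals alone moved the share of lower genes among calls at 24 h against 30 min from 42.8% to 32.6%, as did limma on log2(FPKM + 0.1).

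Replicate numbers did not pair the libraries. Deviations of same-numbered libraries correlated at -0.108 to 0.076 over 9 pairs, and 6 of 18 comparisons were closest for the same number. With the replicate block ZFP36L2 gave -1.53 at 30 min, -0.73 at 24 h and 0.77 between them, and 74, 3158 and 3229 genes were called.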
